A study of Homo sapiens with 12 samples.

Results

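The genes described here are 30 genes of cholesterol and fatty acid synthesis, chosen by name as enzymes and regulators driven by the SREBP transcription factors. They were found in a table of read counts for 23459 Entrez gene IDs by matching each ID to its symbol. All 30 were present, and all 30 were among the 14775 genes that passed the filter on low counts.

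RNA was sequenced from MCF10A, an established line of human breast epithelium that does not form tumours. The cells carried YAP5SA, a version of the coactivator YAP resistant to inhibition by the Hippo kinases, under a doxycycline-inducible promoter, and had received either empty vector (vector cells) or a vector that expresses JUN (JUN cells). Doxycycline at 100 ng/ml (Dox) switched YAP5SA on, and ethanol (EtOH), the solvent, served as control. This gave 4 groups of 3 libraries, EtOH and Dox for each kind of cell, which the study describes as biological replicates and which ask how JUN acts on the response to YAP. All groups carried the YAP5SA allele and grew in medium with horse serum, insulin, hydrocortisone, cholera toxin and EGF. Since no group received Dox without the allele, effects of Dox itself and of YAP5SA cannot be told apart, and in bulk RNA fewer cells that express a gene and less RNA per cell cannot be told apart either.

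Cholesterol is made from acetyl-CoA through mevalonate, squalene and lanosterol, and fatty acids are made from the same acetyl-CoA by carboxylation, condensation, elongation and desaturation. SREBP proteins, encoded by SREBF1 and SREBF2, are held in the endoplasmic reticulum by SCAP and the INSIG proteins while sterols are abundant, and are cut and enter the nucleus when sterols fall. There they bind sterol regulatory elements (SREs), commonly beside sites for the factors NF-Y and Sp1, and switch on most enzymes of both routes, as well as INSIG1 itself, which closes a feedback loop.

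The stretches before the transcription starts of 5 genes are shown, chosen by the changes of these genes or by a motif match. The part of these stretches in the changes was not tested. INSIG1 and HMGCS1 rose most upon YAP5SA induction, and SREBF2 held the single match to an SRE. Against the shared vector EtOH libraries, MSMO1 rose and TM7SF2 fell with either treatment alone. With the other treatment present, MSMO1 did not pass the test for induction or for JUN (log2 fold changes 0.18 and 0.16). TM7SF2 then fell with JUN (-0.89), while its change upon induction (-0.44) did not pass. Each stretch is the 250 bases upstream of the RefSeq start (GRCh38.p14), read 5′ to 3′ on the strand of the gene. The NF-Y letters CCAAT (either strand) and the SRE-like letters TCACNCCAC (either strand) are in capitals. The stretches lie at chr7:155297628-155297877 (plus), chr5:43313413-43313662 (minus), chr4:165327419-165327668 (plus), chr11:65111622-65111871 (plus) and chr22:41832855-41833104 (plus).
INSIG1: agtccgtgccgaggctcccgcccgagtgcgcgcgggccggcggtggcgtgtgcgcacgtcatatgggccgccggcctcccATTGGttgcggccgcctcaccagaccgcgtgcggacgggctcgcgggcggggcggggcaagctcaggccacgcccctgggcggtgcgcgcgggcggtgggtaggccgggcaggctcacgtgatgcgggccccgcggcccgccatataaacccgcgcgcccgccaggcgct
HMGCS1: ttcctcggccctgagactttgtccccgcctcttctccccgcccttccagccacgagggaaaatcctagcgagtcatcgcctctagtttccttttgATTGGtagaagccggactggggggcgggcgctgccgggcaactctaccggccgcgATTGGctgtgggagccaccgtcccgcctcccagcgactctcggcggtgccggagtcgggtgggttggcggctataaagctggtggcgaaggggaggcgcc
MSMO1: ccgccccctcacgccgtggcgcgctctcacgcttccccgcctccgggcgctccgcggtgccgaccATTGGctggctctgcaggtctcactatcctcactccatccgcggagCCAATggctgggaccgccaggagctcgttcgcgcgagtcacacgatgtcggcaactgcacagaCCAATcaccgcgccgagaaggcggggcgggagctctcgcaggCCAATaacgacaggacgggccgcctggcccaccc
TM7SF2: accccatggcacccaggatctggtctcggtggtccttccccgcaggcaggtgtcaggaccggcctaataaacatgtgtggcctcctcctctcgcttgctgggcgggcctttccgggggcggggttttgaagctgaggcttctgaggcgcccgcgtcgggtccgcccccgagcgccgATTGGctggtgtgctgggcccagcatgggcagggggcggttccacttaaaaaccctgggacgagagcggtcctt
SREBF2: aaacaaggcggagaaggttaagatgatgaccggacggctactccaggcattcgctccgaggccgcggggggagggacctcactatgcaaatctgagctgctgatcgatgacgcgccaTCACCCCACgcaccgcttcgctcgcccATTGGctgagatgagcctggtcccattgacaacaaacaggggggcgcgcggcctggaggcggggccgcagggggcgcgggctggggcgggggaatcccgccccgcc

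A window of 300 bases, 250 before and 50 after the start, was found for 26 of the 30 genes and for 11491 of the genes tested (ACAT2, FDFT1, SQLE and FASN had none). CCAAT was present in 18 of the 26 windows (69.2%), against 36.5% of the windows of all genes tested, and MVK and NSDHL held the most, with 5 matches each. The Sp1 letters GGGCGG were present in 24 (92.3%), against 67.9%. SRE-like letters were found in 1 of the 26 (3.8%) and in 1.1% of all genes tested. The E-box CACGTG was found in 3 (11.5%, against 10.0%), and the TEAD letters GGAATG in 4 (15.4%, against 10.8%). The AP-1 letters TGANTCA were found in none of the 26 windows and in 4.9% of those of all genes tested. Both strands were searched for every motif, matches of different motifs may share bases, and a match or its absence describes only these letters in these windows.

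Total counts ranged from 18594867 to 28993487 per library, and the least covered of the 30 genes, TM7SF2, had a mean count of 119 per library. JUN itself was at 47.6 ± 10.5 CPM (counts scaled to library size, mean ± SD, n = 3) in vector EtOH and 190 ± 4.15 in vector Dox. In JUN cells it was at 1280 ± 187 with EtOH and 1250 ± 92.3 with Dox. CCN1, a YAP target, was at 68.5 ± 11.3 in vector EtOH and 1900 ± 88.6 in vector Dox, and at 61.5 ± 2.72 in JUN EtOH and 1070 ± 4.41 in JUN Dox. YAP1 had log2 fold changes of 0.398 and 0.255 upon induction in vector and in JUN cells, which did not pass (edgeR adjusted p = 0.0819 and 0.308). With JUN and no induction it was 0.385 (adjusted p = 0.0755). All 8 mammary epithelial markers examined passed the filter, with summed levels of 8020 to 8240 CPM with EtOH and 5090 to 5940 with Dox in vector cells, and 5770 to 7550 with EtOH and 3490 to 5880 with Dox in JUN cells. Most markers of cells that make much lipid did not pass the filter: of 5 adipocyte and 5 hepatocyte markers, 1 each passed. These were CIDEC, at 160 ± 11.7 CPM in vector EtOH, and SERPINA1, at 106 ± 6.16 CPM. ADIPOQ was at 0 in every library and ALB averaged at most 0.014 CPM in any group. Summed levels of the adipocyte list were 150 to 173, 108 to 125, 143 to 161 and 103 to 125 CPM, in the order of groups above. Those of the hepatocyte list were 99 to 111, 45.3 to 53.9, 179 to 202 and 75.9 to 133 CPM. The part of these markers in the results was not tested. Of 6 fibroblast markers, 5 passed, with sums of 111 to 125, 122 to 162, 112 to 126 and 125 to 139 CPM, and of 7 immune and endothelial markers, 2 passed, with sums of 26.2 to 33.2, 4.54 to 6.13, 9.86 to 12.1 and 1.56 to 3.93 CPM. Vector Dox replicate 1 stood apart from its group: in a chi-square test of counts over genes, the statistic divided by its degrees of freedom was 60.09 against replicate 2 and 47.8 against replicate 3, and 9.26 between the latter. Its deviations from the group mean correlated with transcript length at -0.33 (Spearman), those of replicate 2 at 0.31, and those of vector EtOH replicate 2 at -0.28. In JUN Dox, replicates 1 and 3 deviated in opposite ways with GC content (correlations of -0.36 and 0.36). Their chi-square statistic per degree of freedom was 50.03, as large as those of vector Dox replicate 1, while replicate 2 gave 21.24 against replicate 1 and 13.99 against replicate 3.

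The 30 genes together made up 5057 to 5526 CPM with EtOH and 5419 to 6750 with Dox in vector cells, and 4227 to 4526 with EtOH and 4369 to 5461 with Dox in JUN cells. FASN, the multi-enzyme fatty acid synthase, was the most abundant of them, also per length, at 152 RPKM (CPM per kilobase of merged exons) in vector EtOH, followed by SCD, the main stearoyl-CoA desaturase, at 86.2, PMVK at 76.3, FDPS at 69.9 and EBP at 69.8. STARD4 was lowest at 1.42 RPKM, below HSD17B7 at 2.42 and TM7SF2 at 2.55. Merged exons overstate the length of the transcript in use, so these per-length levels may be too low. Summed by role, the mevalonate enzymes stood at 778.9 ± 42.7 CPM with EtOH and 1069 ± 164 with Dox in vector cells, and at 634.5 ± 19.7 and 753.8 ± 67.7 in JUN cells (mean ± SD, n = 3). The enzymes from lanosterol to cholesterol were at 747.9 ± 26.9, 904.1 ± 53.2, 740.3 ± 5.85 and 820 ± 92.5 CPM in the same order. Acetyl-CoA supply and fatty acid synthase steps were at 1957 ± 141, 2103 ± 609, 1269 ± 180 and 1587 ± 338 CPM, so that spread within the Dox groups was widest for the fatty acid branch.

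**Figure D1:**
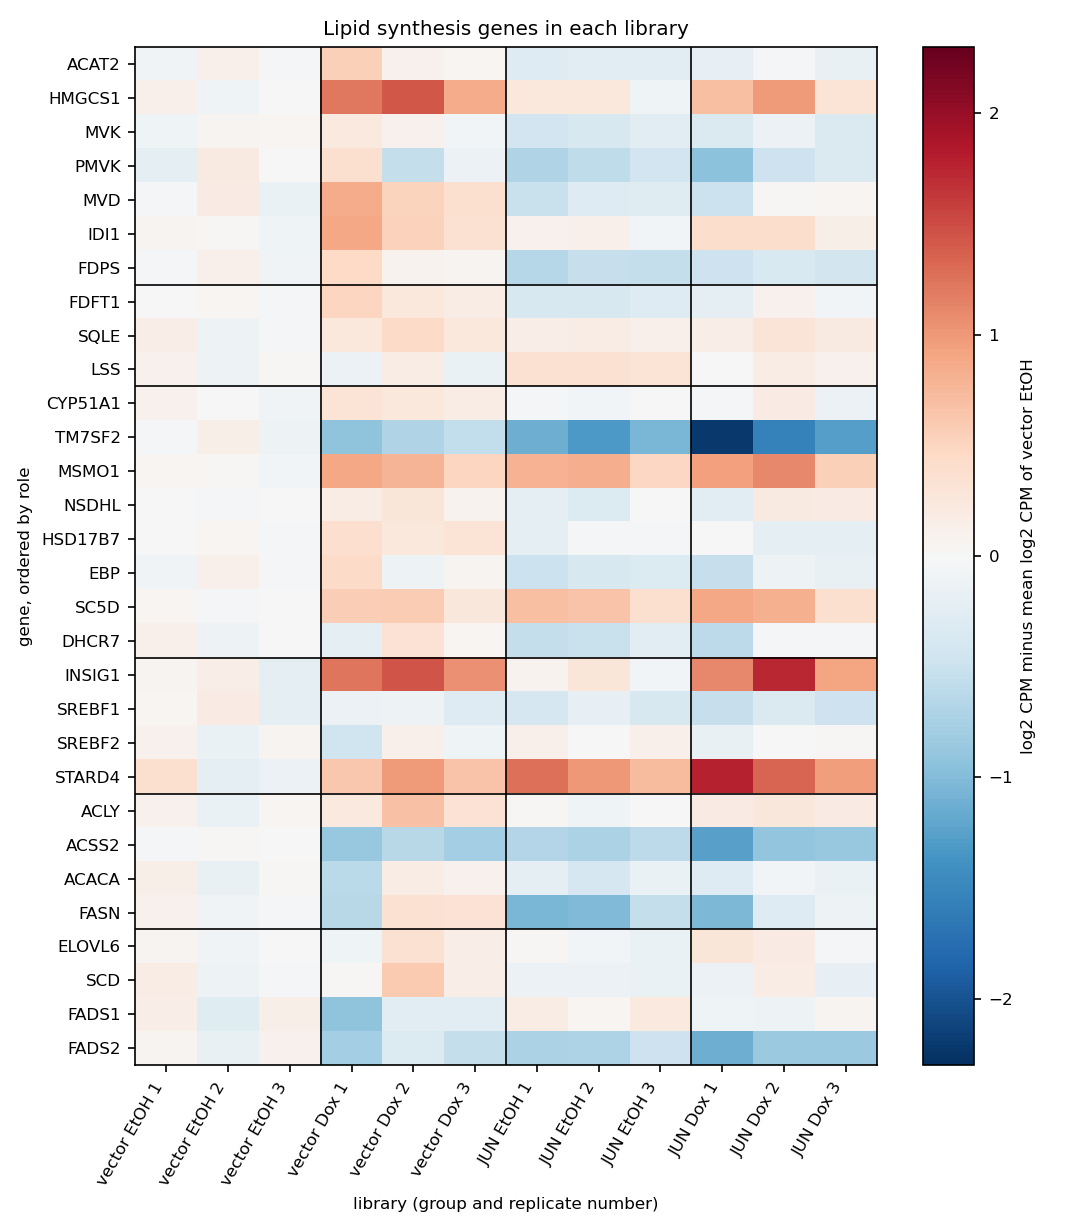
Heat map of the 30 genes (rows, ordered by role from the mevalonate steps to desaturation, with lines between roles) in the 12 libraries (columns, lines between groups), coloured by log2 CPM minus the mean log2 CPM of the 3 vector EtOH libraries. INSIG1 is red in all 6 Dox libraries, TM7SF2 is blue in all libraries outside vector EtOH, and FASN differs within the vector Dox group, from 902 CPM in replicate 1 to 1790 in replicate 2.

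YAP5SA induction in vector cells was examined first. Part of the genes rose, mostly genes of the sterol branch. Of the 30 genes of both branches, 11 were higher in vector Dox than in vector EtOH and 4 were lower (edgeR quasi-likelihood test, Benjamini-Hochberg adjusted p under 0.05 over all genes tested), while 15 did not pass. Among all genes tested 15.6% were called higher and 14.4% lower, against 36.7% and 13.3% of these genes. Their median log2 fold change was 0.20, against 0.01 over all genes tested, and the libraries of the groups did not overlap for 16 of them (53.3%, against 43.9% of all genes tested). The genes that rose were HMGCS1, MVD and IDI1 of the mevalonate steps, FDFT1 and SQLE of the squalene steps, MSMO1, HSD17B7 and SC5D of the steps after lanosterol, the regulator INSIG1, the sterol carrier STARD4 and ACLY. The genes that fell were TM7SF2, ACSS2, FADS1 and FADS2.

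INSIG1 (chr7:155089486-155101945, GRCh37) was at 56.9, 59.9 and 46.7 CPM in vector EtOH replicates 1 to 3 and at 127, 148 and 113 CPM in vector Dox. Every Dox library lay above every EtOH library, and the level was 2.38-fold higher (log2 fold change 1.25, SE 0.18, adjusted p = 0.000115, edgeR). HMGCS1 (chr5:43287572-43313614), which condenses acetyl-CoA and acetoacetyl-CoA to HMG-CoA, went from 118, 101 and 108 CPM to 251, 294 and 196 CPM. Its groups were again separate, with a log2 fold change of 1.18 (SE 0.17, adjusted p = 0.000109, edgeR). IDI1, the isopentenyl diphosphate isomerase, rose by 0.60 on the log2 scale (SE 0.13, adjusted p = 0.0026) and MVD, the mevalonate diphosphate decarboxylase, by 0.58 (SE 0.15, adjusted p = 0.00971). The other mevalonate enzymes did not pass the test: ACAT2 had a log2 fold change of 0.24, FDPS of 0.21, MVK of 0.09 and PMVK of -0.07.

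After lanosterol, MSMO1 (chr4:166248819-166264316), the C4-methyl sterol oxidase, rose from 134, 131 and 123 CPM in vector EtOH to 239, 221 and 182 CPM in vector Dox, with groups that did not overlap (log2 fold change 0.73, SE 0.15, adjusted p = 0.00155, edgeR). SC5D, the sterol C5-desaturase, rose by 0.47 on the log2 scale (adjusted p = 0.0197). STARD4 (chr5:110831731-110848288), a soluble carrier that moves sterol between membranes, rose from 10.2, 6.74 and 7.18 CPM to 12.1, 15.5 and 12.4 CPM (log2 fold change 0.72, SE 0.22, adjusted p = 0.0207). FDFT1, SQLE and HSD17B7 rose by about 0.31 on the log2 scale each, with adjusted p-values of 0.0457, 0.0335 and 0.0464. These 3 calls were lost in 15, 8 and 19 of the 21 alternative settings. TM7SF2 (chr11:64879317-64883856), a C14-sterol reductase of the same stretch of the pathway, went the other way. It was at 8.48, 9.58 and 8.03 CPM in vector EtOH and at 4.58, 5.36 and 5.87 CPM in vector Dox, a log2 fold change of -0.72 (SE 0.19, adjusted p = 0.0103).

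In the fatty acid branch, ACLY, which makes cytosolic acetyl-CoA from citrate, rose by 0.42 on the log2 scale (SE 0.12, adjusted p = 0.0164, edgeR), while ACSS2 (chr20:33459949-33515765), which makes it from acetate, fell. ACSS2 was at 48.3, 50.9 and 50.3 CPM in vector EtOH and at 27.2, 32.2 and 29.1 CPM in vector Dox, with a wide gap between the groups (log2 fold change -0.76, SE 0.11, adjusted p = 0.000103). FADS2, the delta-6 desaturase, fell from 87.2, 73.9 and 89.1 CPM to 48.1, 66.5 and 57.2 CPM (log2 fold change -0.54, SE 0.13, adjusted p = 0.0051), and its neighbour FADS1, the delta-5 desaturase, by 0.47 with groups that overlapped (adjusted p = 0.0354), a call that was lost without vector Dox replicate 1, without vector EtOH replicate 1 and without vector EtOH replicate 3. FASN (chr17:80036214-80056170) was at 1520, 1330 and 1390 CPM in vector EtOH and at 902, 1790 and 1770 CPM in vector Dox, so its Dox libraries lay on both sides of the EtOH libraries and the log2 fold change of 0.08 had a 95% interval of -0.47 to 0.62. ACACA, the acetyl-CoA carboxylase, showed the same split, with 124 CPM in vector Dox replicate 1 and 216 and 204 CPM in the other 2 libraries. The genes of the transcription factors did not pass. SREBF2 was at 271, 227 and 266 CPM in vector EtOH and 185, 275 and 237 CPM in vector Dox, with a log2 fold change of -0.13 (95% interval -0.41 to 0.15). SREBF1 was at 93.1, 103 and 77.1 CPM and at 82.5, 83.5 and 73.2 CPM, with a log2 fold change of -0.19 (95% interval -0.43 to 0.05).

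Of the 9 raised genes with a promoter window, 8 held CCAAT, against 2 of the 4 that fell and 8 of 13 that did not pass. For JUN overexpression without induction, it was held by 4 of 4 called higher, 6 of 9 called lower and 8 of 13 not called. For JUN overexpression during induction, it was held by 1 of 1 called higher, 7 of 8 called lower and 10 of 17 not called. A link of these letters to the calls was not tested. The count of genes called higher was 5 without vector EtOH replicate 2, without vector EtOH replicate 3 or without vector Dox replicate 2, and 7 when the model held only the 6 libraries compared. HMGCS1, IDI1, MSMO1 and INSIG1 were called higher, and TM7SF2, ACSS2 and FADS2 lower, in each of the 21 alternative settings.

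**Figure D2:**
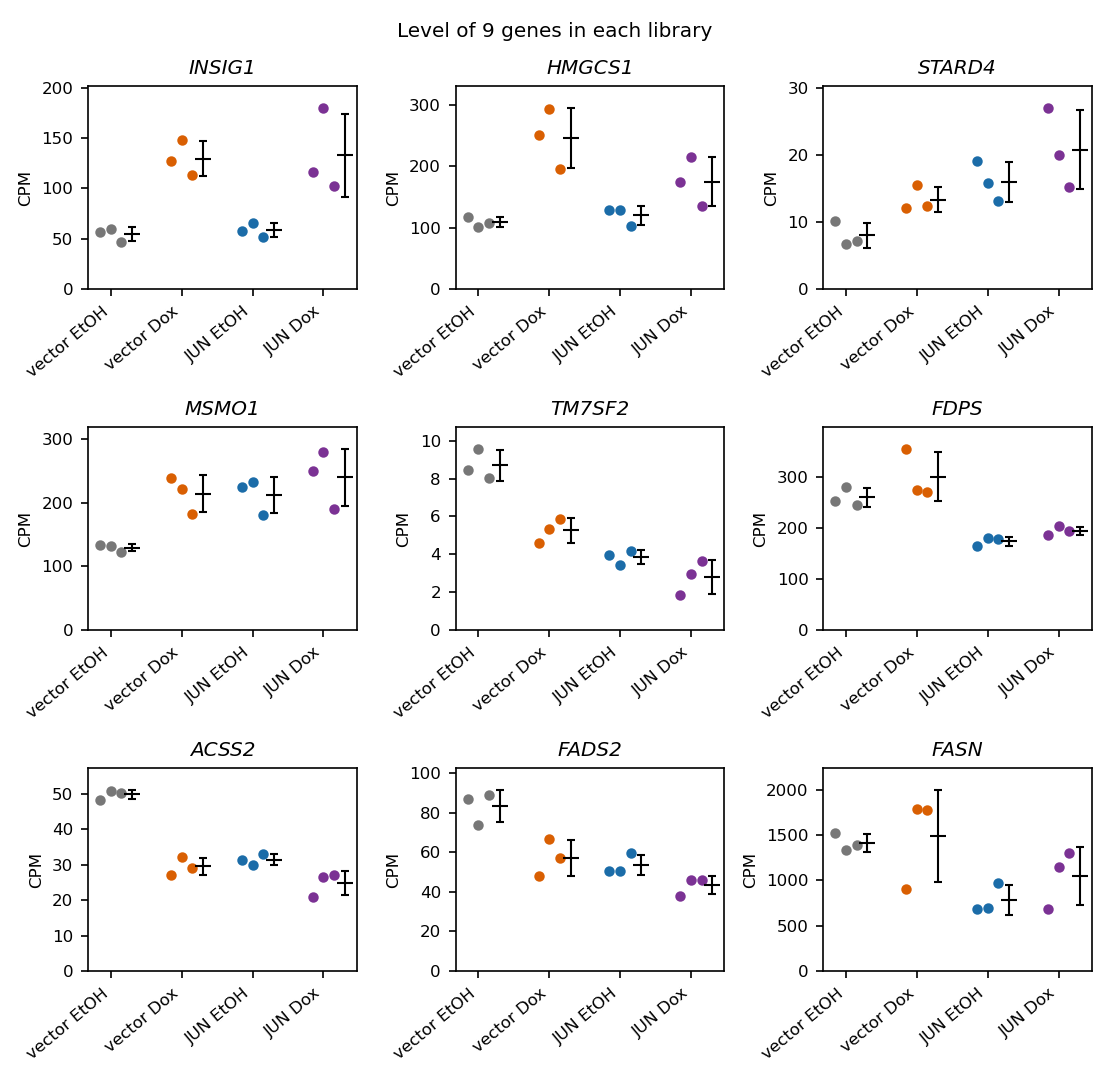
Level of 9 genes in CPM (vertical axis, linear from 0) in each library of the 4 groups (points), with the mean and SD of 3 libraries beside them (dash and bars). INSIG1 separates Dox from EtOH libraries in vector and JUN cells alike, ACSS2 and TM7SF2 are highest in the 3 vector EtOH libraries, FDPS is lower in all 6 JUN libraries (164 to 203 CPM) than in the 6 vector libraries (245 to 355 CPM), and the low FASN point of vector Dox is replicate 1.

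JUN overexpression without induction was compared next, JUN EtOH against vector EtOH. Most of the genes that passed were lower: 11 of the 30 fell and 4 rose (edgeR), while 15 did not pass. Among all genes tested, 20.1% were called higher and 18.9% lower, against 13.3% and 36.7% of these genes. The median log2 fold change was -0.17, against 0.00 over all genes tested, and 17 genes had groups that did not overlap (56.7%, against 57.8% of all genes tested). LSS, MSMO1, SC5D and STARD4 rose. Those that fell were MVK, PMVK and FDPS of the mevalonate steps, FDFT1, the later enzymes TM7SF2, EBP and DHCR7, the transcription factor gene SREBF1, ACSS2, FASN and FADS2. This comparison shares its vector EtOH libraries with that of YAP5SA induction.

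TM7SF2 fell from 8.48, 9.58 and 8.03 CPM in vector EtOH to 3.96, 3.46 and 4.18 CPM in JUN EtOH. Every JUN library was below every vector library (log2 fold change -1.17, SE 0.20, adjusted p = 0.000362, edgeR). FDPS (chr1:155278539-155290457), which makes farnesyl diphosphate, the branch point to sterols and to protein prenylation, fell from 253, 281 and 245 CPM to 164, 180 and 178 CPM (log2 fold change -0.58, SE 0.11, adjusted p = 0.00115). PMVK fell by 0.57 and MVK by 0.36 on the log2 scale (adjusted p = 0.032 and 0.0149). FASN was at 678, 694 and 969 CPM in JUN EtOH, below the 1520, 1330 and 1390 CPM of vector EtOH, a log2 fold change of -0.86 (SE 0.26, adjusted p = 0.0162). ACSS2 fell to 31.4, 30 and 32.9 CPM (log2 fold change -0.67, SE 0.11, adjusted p = 0.000287) and FADS2 to 50.3, 50.8 and 59.7 CPM (log2 fold change -0.64, SE 0.13, adjusted p = 0.00142). Both had thus fallen in either comparison with vector EtOH, and FADS1, which had a log2 fold change of 0.14 here, did not pass.

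STARD4 rose to 19.1, 15.8 and 13.1 CPM from 10.2, 6.74 and 7.18 CPM, the largest log2 rise among the 30 genes with JUN (0.99, SE 0.22, adjusted p = 0.00256, edgeR). MSMO1 reached 224, 232 and 180 CPM (log2 fold change 0.72, SE 0.15, adjusted p = 0.00151) and SC5D rose by 0.58 on the log2 scale (adjusted p = 0.00486). LSS, the lanosterol synthase, was at 140, 140 and 138 CPM against 118, 102 and 112 CPM (log2 fold change 0.34, adjusted p = 0.0175). Genes that had risen most upon induction did not pass with JUN: INSIG1 was at 57.3, 65.9 and 51.7 CPM (log2 fold change 0.10, 95% interval -0.29 to 0.49) and HMGCS1 at 129, 129 and 102 CPM (log2 fold change 0.14, 95% interval -0.23 to 0.50). SREBF1 was at 69.5, 79.2 and 69.9 CPM in JUN EtOH against 93.1, 103 and 77.1 CPM, with groups that overlapped (log2 fold change -0.32, SE 0.11, adjusted p = 0.0341), and this call was lost after correction for exon GC content. SREBF2, at 275, 254 and 276 CPM, did not pass (log2 fold change 0.08, 95% interval -0.20 to 0.36).

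The number of genes called lower was 4 without JUN EtOH replicate 1, 6 without JUN EtOH replicate 2, and 7, 5 and 6 without vector EtOH replicates 1, 2 and 3. FDPS, TM7SF2, ACSS2 and FADS2 were called lower and MSMO1, SC5D and STARD4 higher in each of the 21 alternative settings, whereas the calls of DHCR7, EBP and PMVK were lost in 9, 7 and 6 of them.

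**Figure D3:**
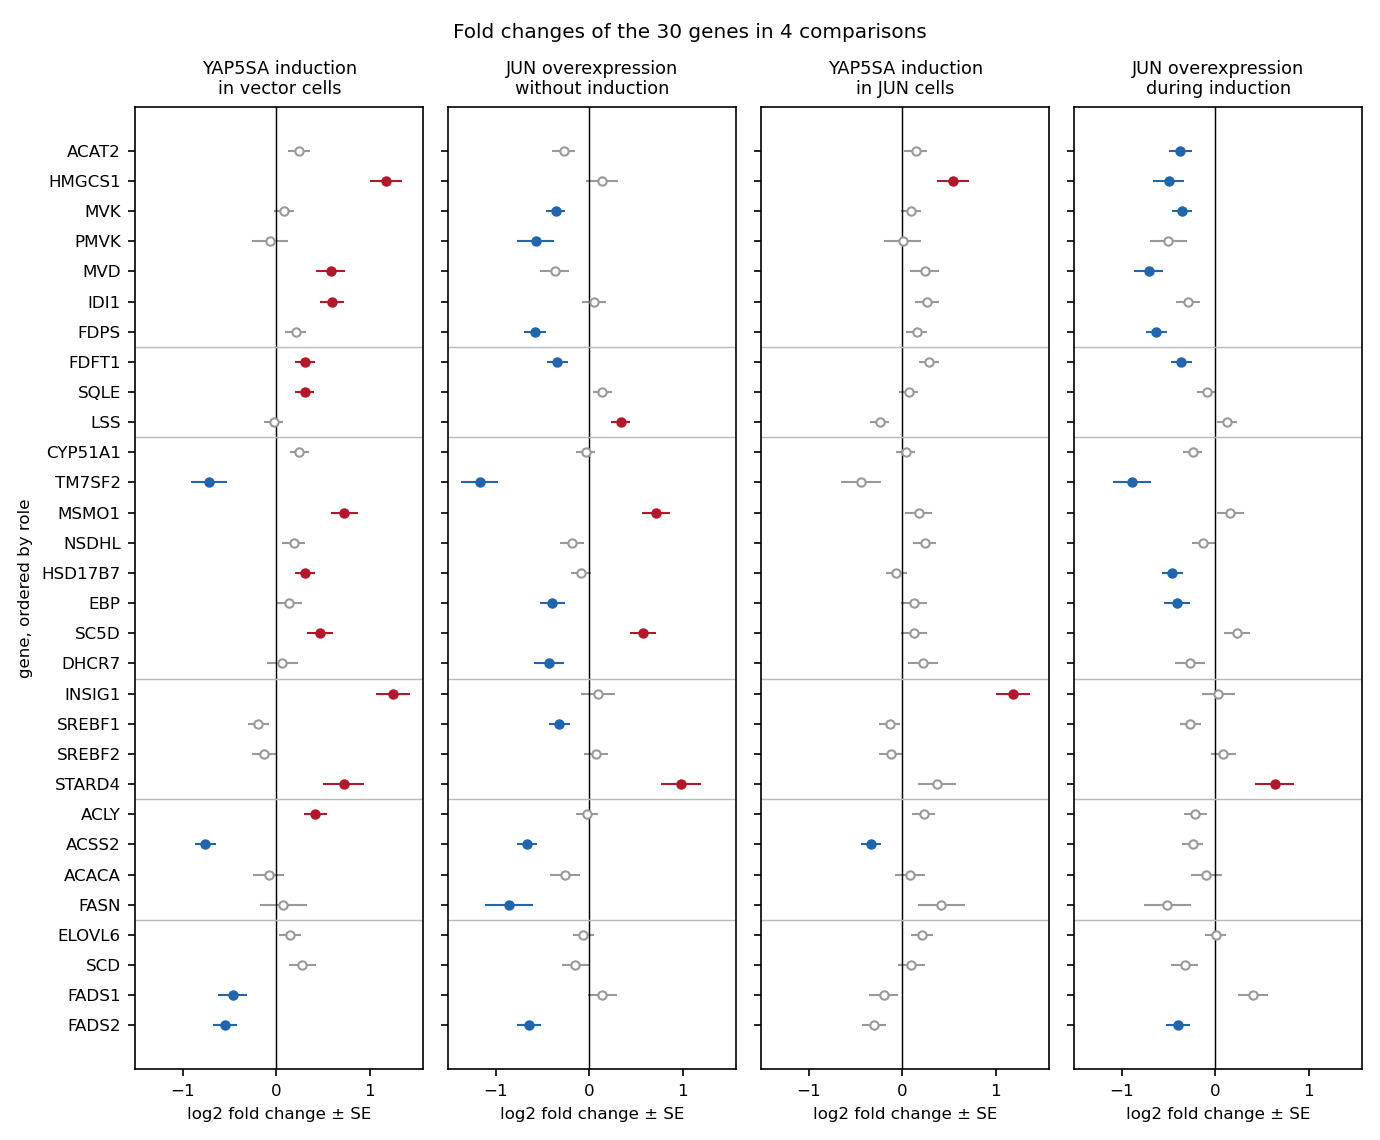
Log2 fold change with its SE (horizontal axis) of the 30 genes (rows, ordered by role, lines between roles) in 4 comparisons (panels), with genes called higher in filled red, called lower in filled blue and not called as open grey circles. The first panel holds 11 red and 4 blue genes and the second 4 and 11, while the third holds only INSIG1, HMGCS1 and ACSS2 as called genes.

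YAP5SA induction in JUN cells, JUN Dox against JUN EtOH, gave few calls. INSIG1 and HMGCS1 rose and ACSS2 fell, and the other 27 genes did not pass (edgeR). Of all genes tested, 11.2% were called higher and 10.3% lower, against 6.67% and 3.33% of these genes. The median log2 fold change was 0.13, against 0.00 over all genes tested, and 10 genes had groups that did not overlap (33.3%, against 39.3% of all genes tested). INSIG1 was at 57.3, 65.9 and 51.7 CPM in JUN EtOH and at 116, 180 and 102 CPM in JUN Dox (log2 fold change 1.19, SE 0.18, adjusted p = 0.000303). It was the single gene whose call held in each of the 21 alternative settings. HMGCS1 went from 129, 129 and 102 CPM to 175, 215 and 135 CPM (log2 fold change 0.54, SE 0.17, adjusted p = 0.0324), and ACSS2 from 31.4, 30 and 32.9 CPM to 21, 26.6 and 27.1 CPM (log2 fold change -0.33, SE 0.11, adjusted p = 0.0426). MSMO1 was at 249, 279 and 190 CPM in JUN Dox, a range that overlapped that of JUN EtOH, and STARD4 at 27.1, 20.1 and 15.3 CPM. Their log2 fold changes of 0.18 and 0.37 did not pass (adjusted p = 0.441 and 0.227).

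The HMGCS1 call was lost without any 1 of the 3 JUN EtOH libraries, and without replicate 1 or 2 of JUN Dox, and the ACSS2 call was lost in 12 of 21 settings, among them each of the vector EtOH and JUN EtOH libraries left out in turn, replicate 3 of vector Dox, and replicates 1 and 2 of JUN Dox. Without JUN Dox replicate 3, 2 genes were called lower. With both Dox replicates 1 left out, an alternative chosen after the data were seen, 6 genes were called higher. The median log2 fold change was 0.05 without JUN Dox replicate 2.

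The induction in vector cells and that in JUN cells use different libraries and can be set side by side. The sign was the same for 27 of the 30 genes (90.0%, against 78.9% of all genes tested), with a Pearson correlation across the 30 genes of 0.85 and a Spearman correlation of 0.75. Across all genes tested these were 0.76 and 0.72. Genes are not independent replicates, and the values are a description. The change was smaller in size in JUN cells for 23 of the 30 (76.7%) and for 59.9% of all genes tested. No gene of the 30 passed the test of that difference, the interaction, in edgeR or in DESeq2, and 4 had an unadjusted p under 0.05 (13.3%, against 9.0% of all genes tested). Over all genes tested, 0.291% were called higher and 0.826% lower in the interaction. The 4 were HMGCS1 (log2 difference -0.63, SE 0.24, adjusted p = 0.346), MSMO1 (-0.55, SE 0.20, adjusted p = 0.326), HSD17B7 (-0.37, SE 0.16, adjusted p = 0.459) and ACSS2 (0.42, SE 0.16, adjusted p = 0.314). For INSIG1 the log2 difference between both inductions was -0.06, with a 95% interval of -0.61 to 0.48. With both Dox replicates 1 left out, ACSS2 was called in the interaction.

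**Figure D4:**
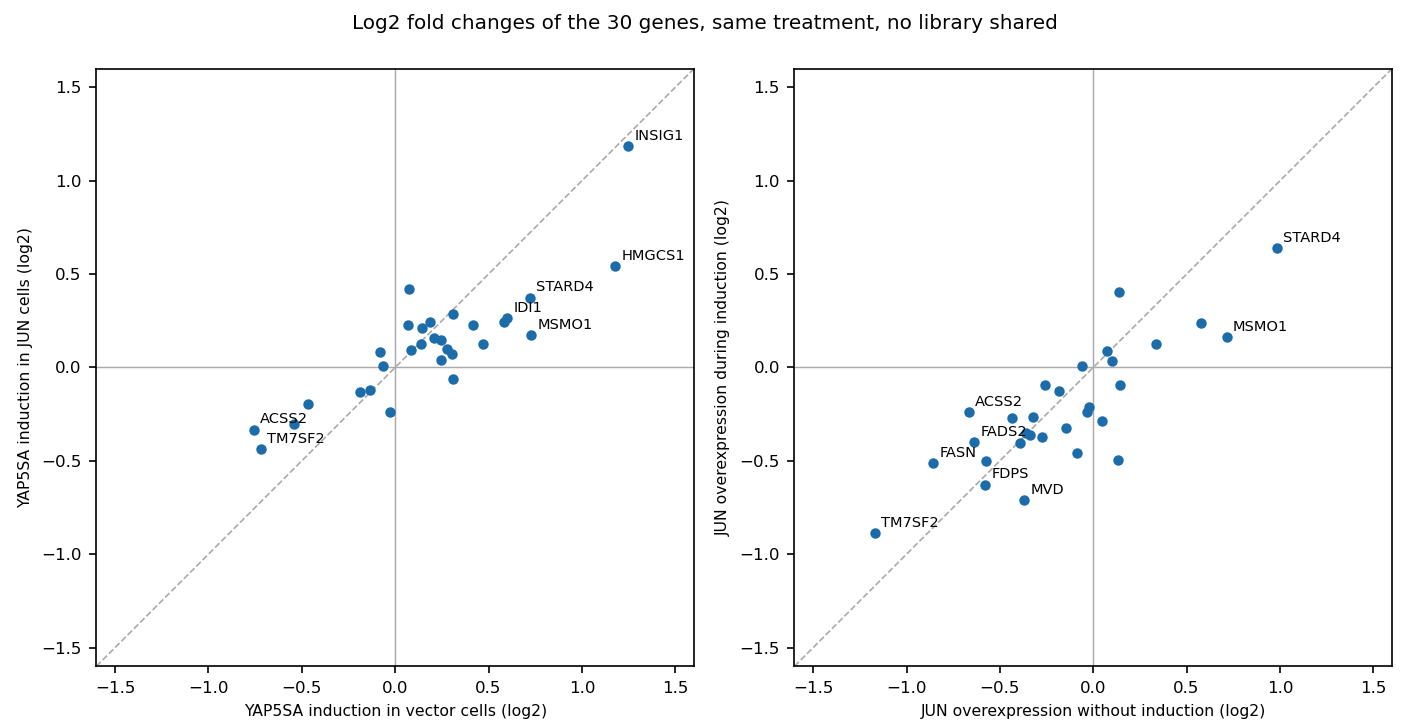
Log2 fold changes of the 30 genes (points), on the left for YAP5SA induction in vector cells (horizontal) against JUN cells (vertical), and on the right for JUN overexpression without induction (horizontal) against during induction (vertical), with no library shared between the axes of a panel. The dashed line marks equal change. Most points on the left lie nearer to zero vertically than horizontally (23 of 30, or 76.7%, against 59.9% of all genes tested), with INSIG1 close to the line, and 26 of 30 on the right keep their sign.

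JUN overexpression during induction, JUN Dox against vector Dox, gave lower levels of a group of sterol enzymes. Of the 30 genes, 10 fell and 1 rose (edgeR), against 17.2% and 18.4% of all genes tested called lower and higher, which compares with 33.3% and 3.33% of these genes. The median log2 fold change was -0.27, against 0.00 over all genes tested, and 11 genes had groups that did not overlap (36.7%, against 43.4% of all genes tested). Those that fell were ACAT2, HMGCS1, MVK, MVD and FDPS, which are 5 of the 7 mevalonate enzymes, with FDFT1, TM7SF2, HSD17B7, EBP and FADS2. STARD4 rose by 0.64 on the log2 scale, with groups that overlapped (SE 0.21, adjusted p = 0.0272).

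MVD (chr16:88718343-88729569) was at 155, 122 and 111 CPM in vector Dox and at 61.2, 87.7 and 88.4 CPM in JUN Dox, with no overlap between the groups (log2 fold change -0.71, SE 0.15, adjusted p = 0.00256, edgeR). FDPS fell from 355, 275 and 271 CPM to 186, 203 and 193 CPM (log2 fold change -0.63, SE 0.11, adjusted p = 0.000643). TM7SF2 fell from 4.58, 5.36 and 5.87 CPM to 1.86, 2.94 and 3.62 CPM (log2 fold change -0.89, SE 0.21, adjusted p = 0.004). HSD17B7, the 3-keto sterol reductase, fell by 0.46 on the log2 scale, from 15.1, 13.6 and 14.3 CPM to 11.4, 9.9 and 9.98 CPM (SE 0.11, adjusted p = 0.00517). HMGCS1 fell by 0.50 with groups that overlapped (adjusted p = 0.0323). INSIG1, at 127, 148 and 113 CPM against 116, 180 and 102 CPM, did not pass and had a log2 fold change of 0.04 (95% interval -0.35 to 0.42). FASN was at 686, 1150 and 1300 CPM in JUN Dox and the log2 fold change of -0.51 did not pass (adjusted p = 0.128), but it did without vector Dox replicate 1. FADS1 had a log2 fold change of 0.41 that did not pass (adjusted p = 0.055) and passed in 8 of the 21 alternative settings.

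Only 4 genes were called lower without JUN Dox replicate 1, 7 without vector Dox replicate 1, 4 when the model held only the 6 libraries compared and 6 with both Dox replicates 1 left out. The STARD4 call was lost without each of 4 libraries, namely replicates 1 and 3 of vector Dox and replicates 1 and 2 of JUN Dox, and 2 genes were called higher without vector EtOH replicate 2, without vector Dox replicate 2 or without JUN Dox replicate 3. MVD, FDPS, TM7SF2 and HSD17B7 were called lower in each of the 21 alternative settings. The calls of ACAT2, HMGCS1, MVK, FDFT1 and EBP were each lost without vector Dox replicate 1 and without JUN Dox replicate 1, and that of FADS2 without JUN Dox replicate 1, vector Dox replicate 2 or vector Dox replicate 3. Set beside JUN overexpression without induction, with which it shares no library, the sign was the same for 26 of the 30 genes (86.7%, against 82.8% of all genes tested), with a Pearson correlation across the 30 genes of 0.82 and a Spearman correlation of 0.77 (0.81 and 0.79 across all genes tested). Called lower in both were FDPS and TM7SF2, in each of the 21 settings, and MVK, FDFT1, EBP and FADS2, whose calls were lost in 4, 4, 5 and 4 settings during induction and, for the former 3, in 3, 5 and 7 without it. This comparison does share its vector Dox libraries with that of induction in vector cells, in which HMGCS1, MVD, FDFT1 and HSD17B7 had risen. JUN itself had also risen there, by 1.99 on the log2 scale. Its log2 fold change was 2.72 for JUN overexpression during induction, against 4.75 without induction.

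CYP51A1, NSDHL, SREBF2, ACACA, ELOVL6 and SCD passed the test in no comparison. Their largest log2 fold changes in size were 0.25 for CYP51A1, the lanosterol demethylase, 0.24 for NSDHL, -0.13 for SREBF2, -0.26 for ACACA, 0.21 for ELOVL6, which elongates palmitate, and -0.33 for SCD. In vector cells SCD was at 504, 417 and 435 CPM with EtOH and at 460, 681 and 501 CPM with Dox, and in JUN cells at 408, 411 and 405 CPM with EtOH and 408, 507 and 396 CPM with Dox, so the groups overlapped in every comparison except JUN EtOH against vector EtOH.

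The log2 fold changes varied with the base composition of the transcripts. Across the 30 genes the Spearman correlation of the log2 fold change with exon GC content was -0.67 for YAP5SA induction in vector cells, -0.70 for JUN overexpression without induction, -0.31 for induction in JUN cells and -0.48 for JUN overexpression during induction. The interaction gave 0.64. Across the 14378 tested genes with a gene model these were -0.16, -0.20, -0.14, -0.16 and 0.11. The 11 genes that rose upon induction in vector cells had a median exon GC of 42.3% and the 4 that fell 55.3%, and the 4 that rose with JUN had 38.1% and the 11 that fell 56.3%. The genes were counted in the same libraries, so these correlations are descriptions. After correction of each library for its GC trend, 9 genes were called higher and 4 lower for induction in vector cells, 4 and 8 for JUN without induction, 2 and 1 for induction in JUN cells, and 2 and 12 for JUN during induction.

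**Figure D5:**
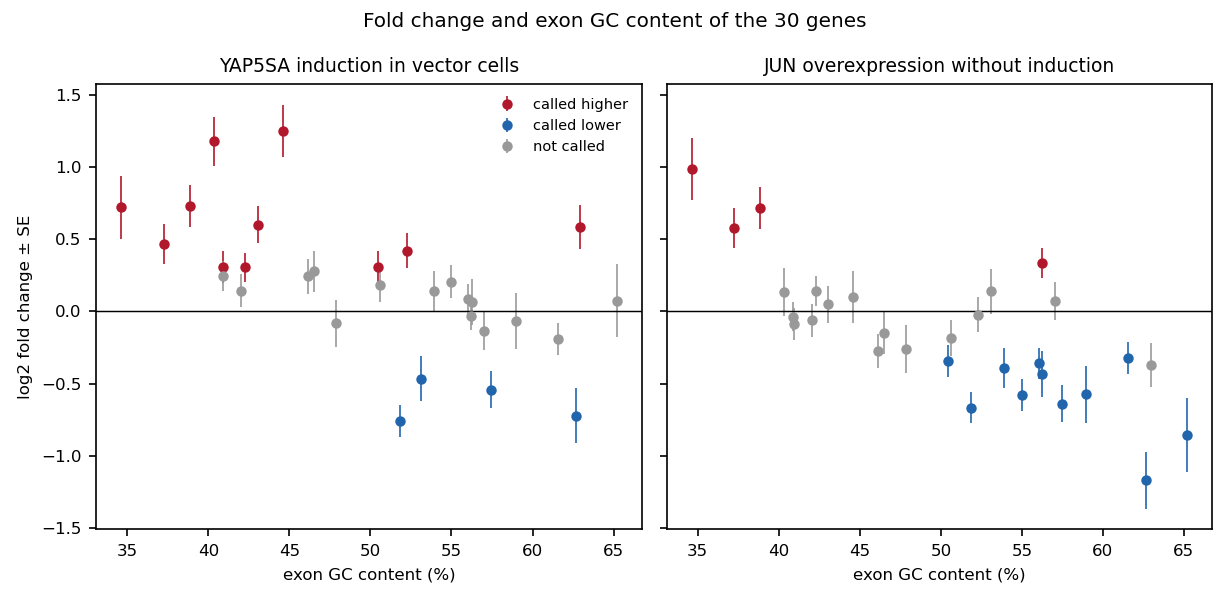
Log2 fold change with its SE (vertical axis) of the 30 genes (points) against the GC content of their merged exons in percent (horizontal axis), for YAP5SA induction in vector cells (left) and JUN overexpression without induction (right), coloured by call. Genes called higher lie mostly at low GC, with ACLY at 52.27% and MVD at 62.96% on the left and LSS at 56.22% on the right above the median of the 30 genes (51.2%), and genes called lower lie above 50% in both panels.

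Reads of overlapping genes limit some of these values, since the library kit named in the methods does not mark strand and no use of strand in counting is stated. IDI1 (mean count 2611) shares 643 exon bases with the antisense gene IDI2-AS1 (mean count 2474), whose log2 fold change upon induction in vector cells was 0.63. ACAT2 (mean count 2705) shares 454 bases with TCP1 (mean count 8067) and 133 bases with SOD2 (mean count 27630). FDPS (mean count 5347) shares 693 bases with RUSC1-AS1 (mean count 1672), which had a log2 fold change of -0.86 with JUN, and has the processed copy FDPSP2 (mean count 513.1), at -0.64. FADS1 and FADS2 share 490 bases with each other, SREBF1 shares 556 with RAI1, MVK 225 with MMAB, STARD4 124 with STARD4-AS1, CYP51A1 108 with AKAP9, FADS2 49 with FEN1 and TM7SF2 18 with VPS51, and HSD17B7 has the copy HSD17B7P2 (mean count 25.5). With JUN without and during induction, log2 fold changes were -0.703 and -0.505 for MMAB and 0.919 and 0.833 for STARD4-AS1 (mean count 57.5). They were -0.493 and -0.427 for TCP1, but 1.78 and 1.40 for SOD2. MMAB, STARD4-AS1 and TCP1 thus changed in the direction of MVK, STARD4 and ACAT2, and SOD2 against that of ACAT2. RAI1 and AKAP9 did not pass with JUN. VPS51 lies on the same strand as TM7SF2 (mean counts 2781 and 119). Its log2 fold change was -0.43 upon induction in vector cells and -0.54 with JUN without induction (adjusted p = 0.039 and 0.0104, edgeR). With JUN during induction it was -0.25 and did not pass. How many reads such pairs share cannot be read from the counts, and values of these genes are uncertain to that extent.

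Genes around these pathways were examined as named lists. Of 5 genes that process SREBP, 1 fell upon induction in vector cells (MBTPS1, the site-1 protease), against a background of 14.4%. With JUN and no induction, INSIG2, the second INSIG protein, rose from 8.47 ± 0.633 to 14.5 ± 1.28 CPM (log2 fold change 0.78, SE 0.18, adjusted p = 0.00328, edgeR), MBTPS2 also rose, and SCAP fell from 120 ± 5.72 to 90.9 ± 5.63 CPM (log2 fold change -0.40, SE 0.10, adjusted p = 0.00825). Of 8 genes of sterol efflux and LXR targets, 7 were tested, and 2 rose and 4 fell with JUN without induction (background 20.1% higher and 18.9% lower). ABCA1, the main exporter of cellular cholesterol, was very low, at 0.251 ± 0.062 CPM in vector EtOH and 1.09 ± 0.176 in JUN EtOH (log2 fold change 2.11, SE 0.52, adjusted p = 0.00539), and MYLIP, a ubiquitin ligase for lipoprotein receptors, was at 0.42 ± 0.118 CPM in vector Dox and 0.0885 ± 0.0482 in JUN Dox (adjusted p = 0.0174), with too few counts there for a fold change. NPC1, which exports cholesterol from lysosomes, rose by 0.55 on the log2 scale with JUN and its partner NPC2 fell by 0.41 (adjusted p = 0.00066 and 0.00939). Values of ABCA1 and MYLIP rest on mean counts of 13.08 and 9.5 per library.

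In the branch from farnesyl diphosphate to other isoprenoids, 2 of 10 genes rose upon induction in vector cells (DHDDS and NUS1, the subunits of the enzyme that makes dolichol precursors), against a background of 15.6%. With JUN and no induction 2 of the 10 fell, against a background of 18.9%. Both act in the ubiquinone route: PDSS1 from 20.4 ± 1.2 to 11.3 ± 1.94 CPM (log2 fold change -0.85, SE 0.15, adjusted p = 0.00041, edgeR) and COQ2 from 31.5 ± 2.42 to 18.6 ± 0.863 CPM (log2 fold change -0.76, SE 0.13, adjusted p = 0.000287). PDSS2, the partner of PDSS1, did not pass (21.5 ± 1.92 and 21.5 ± 1.71 CPM, adjusted p = 0.977). Among 11 further genes of elongation and desaturation, of which 9 were tested, SCD5 had the largest change. This second stearoyl-CoA desaturase was at 16.5 ± 1.33 CPM with EtOH and 40.1 ± 1.72 with Dox in vector cells and at 23.7 ± 0.75 and 25.2 ± 2.09 CPM in JUN cells, so that it rose by 1.28 on the log2 scale upon induction in vector cells (SE 0.10, adjusted p = 2.55e-07). ELOVL4, which makes very long chain fatty acids, rose by 0.63 with JUN during induction (SE 0.13, adjusted p = 0.00133).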

How the data were processed

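RNA was measured in 12 libraries of MCF10A cells, 4 groups of 3 by the sample titles. The authors deposited raw counts per Entrez gene without normalization. Their methods state poly(A) selection, 75-base single-end reads, trimming with Cutadapt, alignment to hg19 with Bowtie2 at default settings and counting with countOverlaps. The submitters' processing notes give cutadapt 4.2 and Bowtie2 2.3.5.1. The annotation is not given in the sources used here. Bowtie2 does not split reads across introns, so junction reads are largely lost in all libraries alike, and genes that overlap can share reads.

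A RefSeq table gave a symbol for 99.4% of the 23459 IDs. Gene positions, exon lengths and GC content come from GENCODE on GRCh37, matched for 95.7%. Promoter windows come from RefSeq on GRCh38.p14. The 30 genes and all lists were chosen with earlier results of these data known, and no list is independent support for a pattern seen before. Named genes were all 30, with values per library for INSIG1, SREBF1, SREBF2 and the 3 called genes with the largest change and groups that did not overlap in each pairwise comparison. Values of MSMO1, LSS, SC5D, HSD17B7, ACACA, SCD and FADS2 per library were added after they were seen, as were NPC1, NPC2, DHDDS, NUS1, MBTPS1, MBTPS2 and, in the closing section, the genes beyond 2 per list.

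Counts were fitted with edgeR 4.0.16 (R 4.3.3) in 1 quasi-likelihood model over all 12 libraries, with TMM factors, filterByExpr (minimum count 10, minimum total count 15) and robust dispersion (biological coefficient of variation 12.5%). Genes were called at a Benjamini-Hochberg adjusted p under 0.05 over the 14775 genes tested. SE was taken as the log2 change over the root of its F statistic, and 95% intervals use the residual and prior degrees of freedom. CPM use TMM-scaled library sizes. Depth was 18594867 to 28993487 counts per library, and intervals cover the spread between these 12 libraries only. The scripts were tested on simulated counts with known changes. Alternatives were DESeq2, RLE and upper-quartile factors, no filter, a mean of at least 5 CPM, only the libraries compared, the replicate number as a block, an exon GC correction (lowess per library) and each library left out. Leaving out both Dox replicates 1 was added after the data were seen. Deviations from the group means correlated at -0.26 to 0.47 between same-numbered libraries, with 7 of 18 pairs over 0.1. Between libraries of other numbers they correlated at -0.47 to 0.315. Same-numbered pairs among vector EtOH, JUN EtOH and JUN Dox were all positive (0.012 to 0.466), while pairs with vector Dox had both signs. The numbers were not taken as pairs in the main model, and whether they mark pairs is not settled.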

Additional observations from a re-analysis of the deposited data

Results flagged for a closer look

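Differences in induction between JUN and vector cells were tested as an interaction with edgeR, and 2 genes named in the report passed. Of all genes tested, 0.291% were called higher and 0.826% lower in the interaction. For SCD5 the log2 induction was lower in JUN cells by -1.195 (SE 0.14, adjusted p = 0.000345), with vector EtOH at 16.5 CPM, vector Dox at 40.1, JUN EtOH at 23.7 and JUN Dox at 25.2. For JUN the log2 difference was -2.028 (SE 0.22, adjusted p = 0.000133), where counts of the introduced and the endogenous transcript cannot be told apart. Groups of 3 libraries are too small for a test of single outlying libraries.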

How the results depend on the processing

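Of the 30 genes, the count called higher for YAP5SA induction in vector cells was 11, and it was 7 with only the libraries compared and 5 to 11 with each library left out. For JUN without induction, 11 were called lower, with 4 to 14 when each library was left out. For induction in JUN cells, 2 were higher and 1 lower. The former was 6 with both Dox replicates 1 left out and 1 to 3 with each library left out, and the latter was 0 with both left out, without a filter or with only the libraries compared and 0 to 2 with each left out. For JUN during induction, 1 was higher and 10 lower. The former was 2 with DESeq2, upper-quartile factors, no filter, a mean of at least 5 CPM or the GC correction, 0 with both Dox replicates 1 left out and 0 to 2 with each left out. The latter was 4 with only the libraries compared, 6 with both left out and 4 to 11 with each left out. In the interaction, 1 gene was called higher with both left out. The median log2 fold change ranged over each library left out from -0.208 to -0.132 for JUN without induction and from 0.051 to 0.147 for induction in JUN cells. Leaving libraries out lowered some of these counts and raised others, and the causes were not tested. No call changed sign in any setting run. With the replicate number as a block, 9 genes were higher and 4 lower for induction in vector cells, 4 and 10 for JUN without induction, 2 and 1 for induction in JUN cells, and 1 and 12 for JUN during induction. The numbers are not known to mark pairs.

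Low counts limit TM7SF2, HSD17B7 and STARD4 most. The absence of a group with Dox and no YAP5SA allele, the unknown annotation and the unstated use of strand in counting apply to all values.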

Other observations

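Genes listed under fatty acid oxidation fell in part. The list held 14 genes, among them PDK4 and the regulators PPARA and PPARGC1A beside the enzymes and carriers. Of the 14, 6 fell upon YAP5SA induction in vector cells (edgeR, background 14.4% called lower), with a median log2 fold change over the list of -0.30, against 0.01 for all genes tested. Upon induction in JUN cells 2 fell (background 10.3%), with a median of -0.19. PDK4, a kinase that switches off pyruvate dehydrogenase, fell from 17.6 ± 2.3 CPM in vector EtOH to 2.45 ± 0.131 in vector Dox (SD, n = 3 each, log2 fold change -2.84, SE 0.19, adjusted p = 5.75e-08, edgeR). In JUN cells it fell from 8.02 ± 1.95 to 2.07 ± 0.372 CPM (log2 fold change -1.94, SE 0.20, adjusted p = 7.16e-06). HADHA, HADHB, ACADVL and ACAA2, enzymes of the oxidation cycle, fell by 0.45, 0.31, 0.31 and 0.39 on the log2 scale. With JUN and no induction 6 fell and 1 rose (background 18.9% and 20.1%). ECI1, an isomerase of the same cycle, fell from 84.2 ± 15.1 to 46.4 ± 3.88 CPM (log2 fold change -0.86, SE 0.15, adjusted p = 0.000412), CPT1A, which admits fatty acids to mitochondria, fell from 250 ± 22.3 to 148 ± 17.6 CPM (log2 fold change -0.75, adjusted p = 0.000213), and PPARA rose by 0.57.

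Of 12 genes of lipid supply and glycerolipid synthesis, 5 fell and 1 rose upon induction in vector cells (background 14.4% and 15.6%), while 6 rose and 4 fell with JUN without induction (background 20.1% and 18.9%). ACSL1, which activates fatty acids with CoA, was at 172 ± 2.86 CPM with EtOH and 68.7 ± 8.75 with Dox in vector cells, and at 356 ± 14.2 and 113 ± 5.66 CPM in JUN cells. Its log2 fold change was -1.32 for induction in vector cells (SE 0.10, adjusted p = 1.81e-07, edgeR), -1.65 in JUN cells (SE 0.10, adjusted p = 5.5e-08) and 1.05 for JUN without induction (SE 0.10, adjusted p = 1.69e-06). DGAT2, which completes triglycerides, had log2 fold changes of -0.59, -0.68 and 0.55 in the same 3 comparisons, each of which passed. ACACB, the carboxylase whose product restrains fatty acid entry to mitochondria, was higher in JUN Dox, at 3.66 ± 0.675 CPM, than in vector Dox, at 1.76 ± 0.466 CPM (log2 fold change 1.06, SE 0.22, adjusted p = 0.00162). MID1IP1, a partner of acetyl-CoA carboxylase, rose by 0.67 upon induction in vector cells (adjusted p = 8.2e-05).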
